A study of Mus musculus with 9 samples.

Results

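The genes described here encode muscle ankyrin repeat proteins (Ankrd1, Ankrd2 and Ankrd23), myozenins (Myoz1, Myoz2 and Myoz3) and other proteins of the Z-disc and its surroundings (Tcap, Smpx and Des). They were chosen by gene symbol from a list of 10, with earlier results of these data known. A gene entered if a probe set of the array named it alone, and 9 of the 10 did, of 19938 genes named alone on the array. Capn3, the muscle calpain, shares its probe set with Ganc in the platform annotation and was left out. A gene with several probe sets would have been represented by the one with the highest mean, but each of the 9 had 1 probe set, so no measured value decided between probe sets. All 9 also passed the filter on low values that left 16582 genes for testing.

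Primary myoblasts had been taken from the skeletal muscle of Balb/c animals labelled wild type, whose age the labels do not give. Total RNA was hybridised to Affymetrix arrays, giving 3 arrays of cycling myoblasts at 0 days, 3 of myotubes at 2 days and 3 of myotubes at 5 days. Titles of the myotube samples refer to differentiating medium, but the protocol shared by all 9 samples lists Ham's F10 with 20% serum and 4 ng/ml basic fibroblast growth factor. The labels do not say whether the 3 replicates came from separate cultures or animals, so the spread between them may be technical.

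The Z-disc anchors the thin filaments of neighbouring sarcomeres and carries titin, alpha-actinin and a set of proteins that also shuttle to the nucleus or bind signalling enzymes. Muscle ankyrin repeat proteins bind titin in the I-band and can enter the nucleus, and Ankrd1 in particular is known as a gene induced by stretch, injury and the co-activator YAP. Myozenins, also called calsarcins, tether the phosphatase calcineurin to alpha-actinin. Tcap (telethonin) caps the end of titin at the Z-disc, Smpx is a small muscle protein linked to mechanical load, and Des (desmin) forms the intermediate filaments that tie Z-discs together.

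The values are log2 expression values from RMA, a method that corrects background, normalizes arrays and summarises the probes of each probe set. RMA had been run within each time point, so each value is given as deposited and after quantile normalization of all 9 arrays to one distribution, called the common scale. A log2 fold change (log2FC) of 1 is a 2-fold difference. Where values come as a pair, the first is as deposited and the second on the common scale. The array median lay between 4.33 and 4.35 in cycling myoblasts, was 4.26 at day 2 and lay between 3.98 and 3.99 at day 5, and 47.9% to 60.2% of probe sets had one value on all 3 arrays of a time point. For the 9 genes, 16 of 27 SDs over 3 arrays were 0 and the largest was 0.27, for Smpx in cycling myoblasts. Because RMA was run within each time point, groups of arrays that do not overlap are described and are no measure of certainty. The median log2FC over all tested genes was -0.01 as deposited (0.09 on the common scale) at day 2, and -0.37 and 0.17 at day 5, both against cycling myoblasts. Between day 2 and day 5 it was -0.40 as deposited (0.06 on the common scale), so small changes between those time points have no settled direction. Of the myoblast markers (Myod1, Myf5, Pax7, Cdh15, Itga7 and Vcam1) and the myotube markers (Myog, Myh3, Ckm, Acta1, Tnnt3 and Mymk), 6 of 6 each lay above the array median at all 3 time points. By day 5, 5 of 6 myoblast markers had fallen at least 2-fold on both scales, against 12.3% of all tested genes. Of the myotube markers 5 of 6 had risen by that much, against 4.44%. From day 2 to day 5 the median log2FC of the myotube markers was -0.51 as deposited (-0.235 on the common scale).

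Ankrd1 was lower in myotubes than in cycling myoblasts while Ankrd2 and Ankrd23 were higher, each with its own time course. The level of Ankrd1 was 11.50 on each of the 3 arrays of cycling myoblasts, then 10.67, 10.67 and 10.65 at day 2 and 10.54, 10.65 and 10.62 at day 5. All myoblast arrays lay above all myotube arrays, and as deposited the day 2 and day 5 arrays were nearly level. The log2FC was -0.84 as deposited (-0.77 on the common scale) at day 2, and -0.90 and -0.41 at day 5, always under 2-fold. These had adjusted p under 0.05 in limma's test on both scales, without reaching the 2-fold limit. From day 2 to day 5 the sign turned with the scale. As deposited the log2FC was -0.06 (limma, adjusted p = 0.0645), and on the common scale 0.37 (limma, adjusted p = 1.19e-05). In bulk samples such as these, fewer cells of a type and less RNA per cell cannot be told apart.

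Ankrd2, a stretch-responsive family member typical of slow muscle, was highest at day 2. Its levels were 7.31, 7.47 and 7.33 in cycling myoblasts, 9.39 on each day 2 array and 7.83 on each day 5 array. The day 2 arrays stood above all others, and the day 5 arrays stood above the myoblast arrays by less. Against cycling myoblasts the log2FC was 2.02 as deposited (2.24 on the common scale) at day 2, a 4.07-fold and 4.73-fold rise. At day 5 it was 0.46 as deposited (1.36 on the common scale), which is not a 2-fold change on both. The later decline had a log2FC of -1.56 as deposited (-0.88 on the common scale), so it reached 2-fold on the deposited values alone.

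Ankrd23, known as diabetes-related ankyrin repeat protein and a titin-binding member of the family, rose at both steps. Levels of 4.69, 4.80 and 4.80 in cycling myoblasts were followed by 8.64, 8.64 and 8.60 at day 2 and 9.98 on each array at day 5. The 3 groups did not overlap. The log2FC at day 2 was 3.87 as deposited (3.91 on the common scale). At day 5 it was 5.22 and 5.86 against cycling myoblasts, or 37.3-fold and 58.0-fold. Ankrd23 lay little above the array median of 4.33 to 4.35 in cycling myoblasts, so the exact size of these rises is not known. The second step alone had a log2FC of 1.35 as deposited (1.95 on the common scale).

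When all 16582 tested genes were ranked by the smaller of their log2FC values on both scales, Ankrd23 was number 27 among rises at day 2, number 5 at day 5 and number 67 between day 2 and day 5. Ankrd2 was number 293 at day 2 and number 2139 at day 5. Ranks describe position in this table and were not tested.

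**Figure D1:**
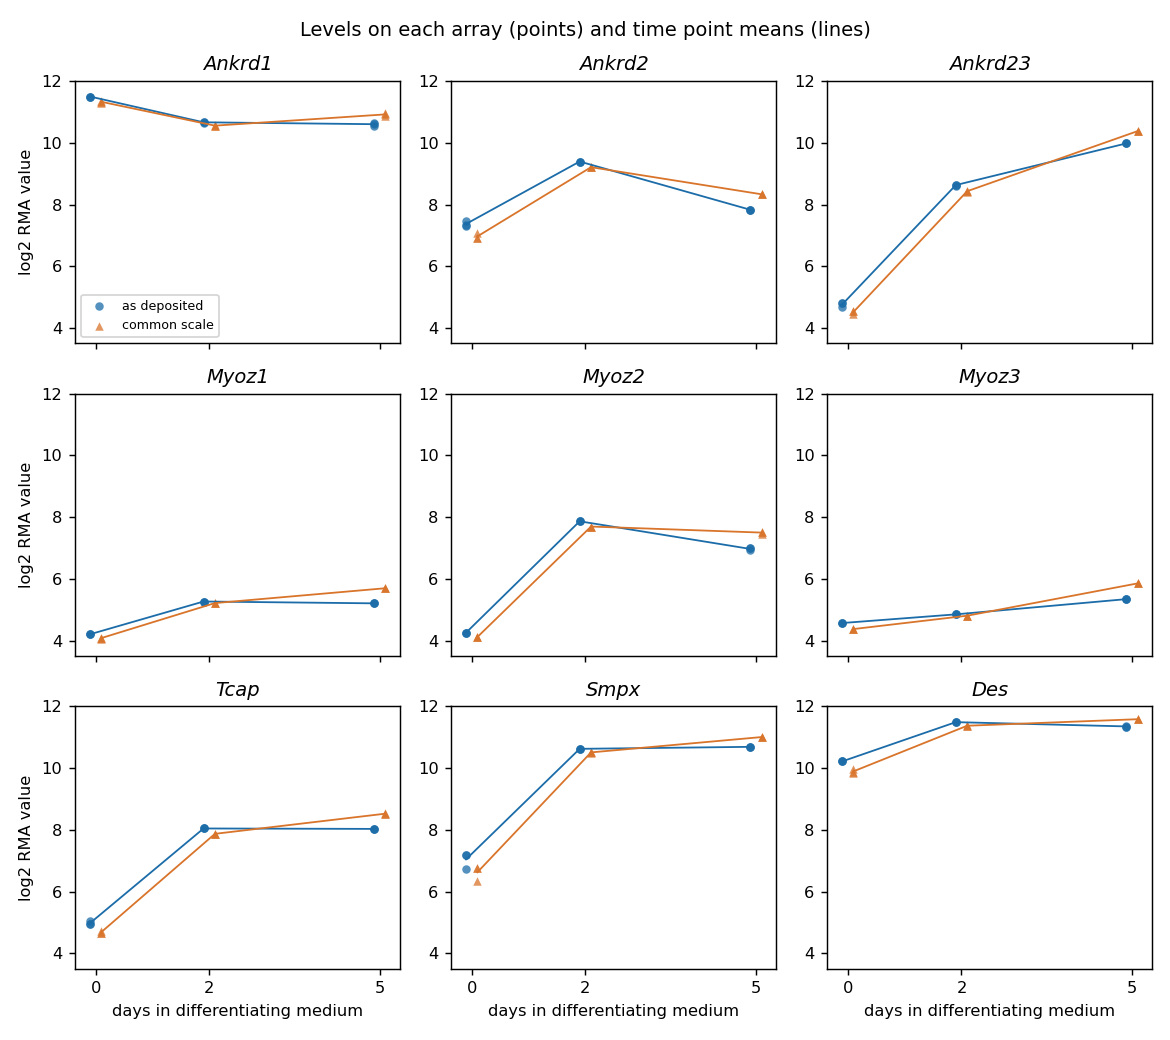
Log2 RMA values of the 9 genes on each array against days in differentiating medium, as deposited (blue circles) and on the common scale (orange triangles), with lines through the means of 3 arrays. Ankrd1 is highest at 0 days, Ankrd2 peaks at 2 days with 9.39 as deposited, and Ankrd23 climbs from 4.69 to 4.80 at 0 days to 9.98 at 5 days.

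Because members of a family were measured on the same arrays, the difference between 2 of them within an array was also compared between time points. The log2 difference Ankrd1 minus Ankrd2 was 4.13 ± 0.091 (SD, n = 3) before differentiation, 1.27 ± 0.0090 at day 2 and 2.77 ± 0.058 at day 5. The difference Ankrd1 minus Ankrd23 was 6.74 ± 0.063, 2.03 ± 0.016 and 0.62 ± 0.063 in the same order. Each difference sets 2 probe sets side by side and carries no information on which gene is more abundant, so only its change with time is read. Ankrd1 minus Ankrd23 changed by -6.12 as deposited (-6.27 on the common scale) between cycling myoblasts and day 5. Ankrd2 minus Ankrd23 changed by -2.91 and -2.83 between day 2 and day 5. Over 6 pairs within the ankyrin and myozenin families and 3 time contrasts, 18 of 18 changes kept their sign on the common scale. A difference within an array cancels any amount added to the whole array, so the kept signs are a weak check. All 18 had an exact two-sided permutation p of 0.1 (Benjamini-Hochberg adjusted p also 0.1), the smallest that 3 against 3 arrays can give, so the design could not reach 0.05. Those that set Myoz1 or Myoz2 in cycling myoblasts against a later time have no known size, since both lay below the array median there. Those that set Ankrd23 or Myoz3 in cycling myoblasts against a later time have no exact size either, since both lay little above it.

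Promoter sequence is shown for 4 genes whose time courses differ: Ankrd1 (lower in myotubes), Ankrd2 (highest at day 2), Des (an early and moderate rise) and Myoz2 (a large early rise). RefSeq promoters of build GRCm38.p6 were matched by symbol for 6 of the 9 genes. The windows hold the 250 bases before the annotated start, at chr19:36119845-36120094 on the minus strand, chr19:42035777-42036026 on the plus strand, chr1:75360042-75360291 on the plus strand and chr3:123034988-123035237 on the minus strand. They are written 5′ to 3′ on the gene's strand, and capitals mark matches on either strand to the E box CANNTG (bound by myogenic bHLH factors), the MCAT element CATTCC (bound by TEAD factors), the MEF2 site or the CArG box (bound by serum response factor).
Ankrd1: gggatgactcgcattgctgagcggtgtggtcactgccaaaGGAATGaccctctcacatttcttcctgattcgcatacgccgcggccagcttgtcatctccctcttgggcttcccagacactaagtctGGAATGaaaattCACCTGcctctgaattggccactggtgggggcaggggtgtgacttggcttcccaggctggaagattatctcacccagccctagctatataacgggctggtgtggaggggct
Ankrd2: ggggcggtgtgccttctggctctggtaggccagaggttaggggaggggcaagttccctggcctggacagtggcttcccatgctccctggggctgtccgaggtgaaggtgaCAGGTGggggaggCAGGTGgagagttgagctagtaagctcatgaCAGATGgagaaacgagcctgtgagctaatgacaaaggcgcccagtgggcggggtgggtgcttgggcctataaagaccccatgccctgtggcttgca
Des: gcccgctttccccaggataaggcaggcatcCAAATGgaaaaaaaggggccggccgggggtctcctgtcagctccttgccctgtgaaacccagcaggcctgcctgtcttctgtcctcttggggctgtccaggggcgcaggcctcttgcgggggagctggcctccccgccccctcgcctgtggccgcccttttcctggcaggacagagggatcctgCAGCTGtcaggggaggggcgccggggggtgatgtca
Myoz2: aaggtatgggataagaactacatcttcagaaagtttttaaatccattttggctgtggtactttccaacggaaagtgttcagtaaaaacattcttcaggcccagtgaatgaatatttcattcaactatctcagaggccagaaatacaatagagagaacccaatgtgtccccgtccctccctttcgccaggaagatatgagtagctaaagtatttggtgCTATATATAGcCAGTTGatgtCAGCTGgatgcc

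In the Ankrd1 window 2 MCAT elements began 210 and 123 bases before the start, and 1 E box began 111 bases before it. Of 32851 promoter windows of the same length, 12.6% held at least 1 MCAT element and 66.2% at least 1 E box. The Ankrd2 window held 3 E boxes, beginning 140, 127 and 96 bases before the start, and no match to MCAT. In Des the E box nearest the start had the form CAGCTG, 36 to 31 bases before it, a form found in 13.0% of windows. In Myoz2 a MEF2 site lay 33 to 24 bases before the start, followed by E boxes that began 22 and 12 bases before it, the second of the form CAGCTG. A MEF2 site was found in 2.92% of windows and a CArG box in 1.47%, and no window of the 6 matched genes held a CArG box. Ankrd23 had 2 annotated starts: one window held 1 MCAT element and 2 E boxes and the other no motif. The Smpx window held none of the motifs. The CAGCTG form is itself an E box, and no other matches overlapped. These are letter matches in a fixed window and say nothing on whether a factor binds there.

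Myoz1 and Myoz2 rose, to different extents, and Myoz3 reached 2-fold on both scales in no contrast. Myoz2 (calsarcin-1), the form typical of heart and slow muscle, was 4.26 on each array of cycling myoblasts, 7.87 on each at day 2, and 6.99, 6.99 and 6.93 at day 5. Day 2 stood above day 5 on both scales, and both stood far above the myoblasts. Its log2FC against cycling myoblasts was 3.61 as deposited (3.58 on the common scale) at day 2, and 2.71 and 3.38 at day 5. From day 2 to day 5 it was -0.90 as deposited (-0.20 on the common scale). The myoblast level lay below the array median, so it is not shown to lie above background and the exact size of the rise is not known.

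Myoz1 (calsarcin-2), the fast-fibre form, was 4.21 on each array of cycling myoblasts, 5.27 on each at day 2 and 5.21 on each at day 5. Its level in cycling myoblasts also lay below the array median. The log2FC against cycling myoblasts was 1.06 as deposited (1.13 on the common scale) at day 2, and 1.00 and 1.62 at day 5, just past the 2-fold limit as deposited. Myoz3 (calsarcin-3), also a fast-fibre form, went from 4.57 through 4.85 to 5.35, with one value on the 3 arrays of each time point. It was the myozenin with its larger step between day 2 and day 5, with log2FC 0.49 as deposited (1.05 on the common scale), against 0.28 and 0.43 between cycling myoblasts and day 2. Neither step of Myoz3 was 2-fold on both scales, and its day 5 value against cycling myoblasts was 0.77 as deposited (1.48 on the common scale). Myoz3 lay little above the array median in cycling myoblasts, so the exact size of its changes from there is not known. The within-array difference Myoz2 minus Myoz3 was -0.31 in cycling myoblasts, 3.02 at day 2 and 1.63 ± 0.035 (SD, n = 3) at day 5, with an SD of 0 at the earlier time points. Since Myoz2 lay below the array median in cycling myoblasts, the size of the first change in this difference is not known.

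Tcap and Smpx took their larger step before day 2. Tcap was 5.03, 4.95 and 4.95 in cycling myoblasts, 8.05 on each day 2 array and 8.03 on each day 5 array. Day 2 and day 5 lay close together as deposited, with log2FC -0.01 (limma, adjusted p = 0.583). The common scale gave 0.65 (limma, adjusted p = 1.35e-08). Its rise at day 2 had a log2FC of 3.07 as deposited (3.19 on the common scale), and at day 5 of 3.06 and 3.84. Smpx was 6.73, 7.20 and 7.20 in cycling myoblasts, 10.63 on each day 2 array and 10.69 on each day 5 array. One myoblast array lay lower than the other two, and all 3 lay far below the myotubes. The log2FC of Smpx was 3.58 and 3.88 at day 2 and 3.65 and 4.38 at day 5, with the deposited value first. Between day 2 and day 5 it was 0.06 (limma, adjusted p = 0.631) and 0.50 (limma, adjusted p = 0.0036).

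Desmin was measured at 10.22 on each array of cycling myoblasts, at 11.49 on each at day 2 and at 11.38, 11.34 and 11.33 at day 5. Its myoblast arrays were already well above the array median, and the myotube arrays lay above them without overlap. The rise of Des had a log2FC of 1.27 as deposited (1.48 on the common scale) at day 2, and of 1.13 and 1.69 at day 5. From day 2 to day 5 the log2FC was -0.14 as deposited (0.21 on the common scale).

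A gene was called changed when limma's adjusted p was under 0.05 and the change at least 2-fold in one direction on both scales. At day 2, 7 of the 9 genes were called higher than in cycling myoblasts (Ankrd2, Ankrd23, Myoz1, Myoz2, Tcap, Smpx and Des), against 6.04% of all tested genes. None was called lower, against 8.41% of all. At any size, with an unadjusted limma p under 0.05 on both scales, 8 of the 9 were higher at day 2, against 42.9% of all tested genes, and 1 (Ankrd1) lower, against 37.4%. At day 5, 6 of 9 were called higher (those of day 2 without Ankrd2), against 4.44% of all, and 0 lower, against 12.3%. By the criterion of any size 8 were higher, against 29.7% of all, and Ankrd1 lower, against 38.2%. Between day 2 and day 5, Ankrd23 was the 1 gene called higher, against 0.766% of all, and 0 were called lower, against 3.67%. At any size with an unadjusted p under 0.05 on both scales, 2 genes were higher in that last contrast, against 16.2% of all, and 2 lower, against 40.7%, which is near the background. The median log2FC of the 9 genes was 2.02 as deposited (2.24 on the common scale) at day 2, and 1.13 and 1.69 at day 5. Adjusted p of the called genes was at most 1.06e-07 as deposited and 9.48e-09 on the common scale. With an SD of 0 in 16 of 27 cases after RMA within each time point, these p-values rank no gene above another, and the sizes carry the comparison. The genes were chosen with their results known, so their share of calls is a description and no test.

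**Figure D2:**
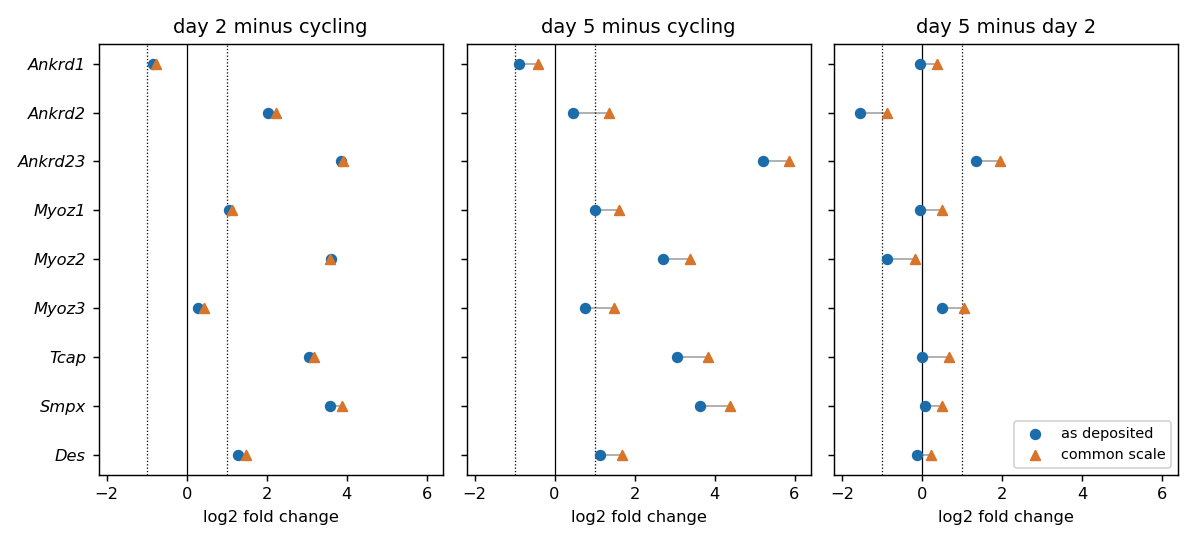
Log2 fold changes of the 9 genes in 3 contrasts, as deposited (blue circles) and on the common scale (orange triangles), with dotted lines at 2-fold. At day 2 Ankrd1 lies below 0 and the others above it, and in the last panel Ankrd23 lies beyond 2-fold upward on both scales with 1.35 and 1.95.

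The step to day 2 and the step from day 2 to day 5 separated the genes. Ankrd23 alone among the 9 was called higher in both steps. Tcap, Smpx, Myoz1 and Des were called higher in the first step, with log2FC in the second of -0.14 to 0.06 as deposited and of 0.21 to 0.65 on the common scale. Ankrd2 and Myoz2 were lower at day 5 than at day 2 on both scales, with log2FC -1.56 and -0.88 for Ankrd2 and -0.90 and -0.20 for Myoz2.

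**Figure D3:**
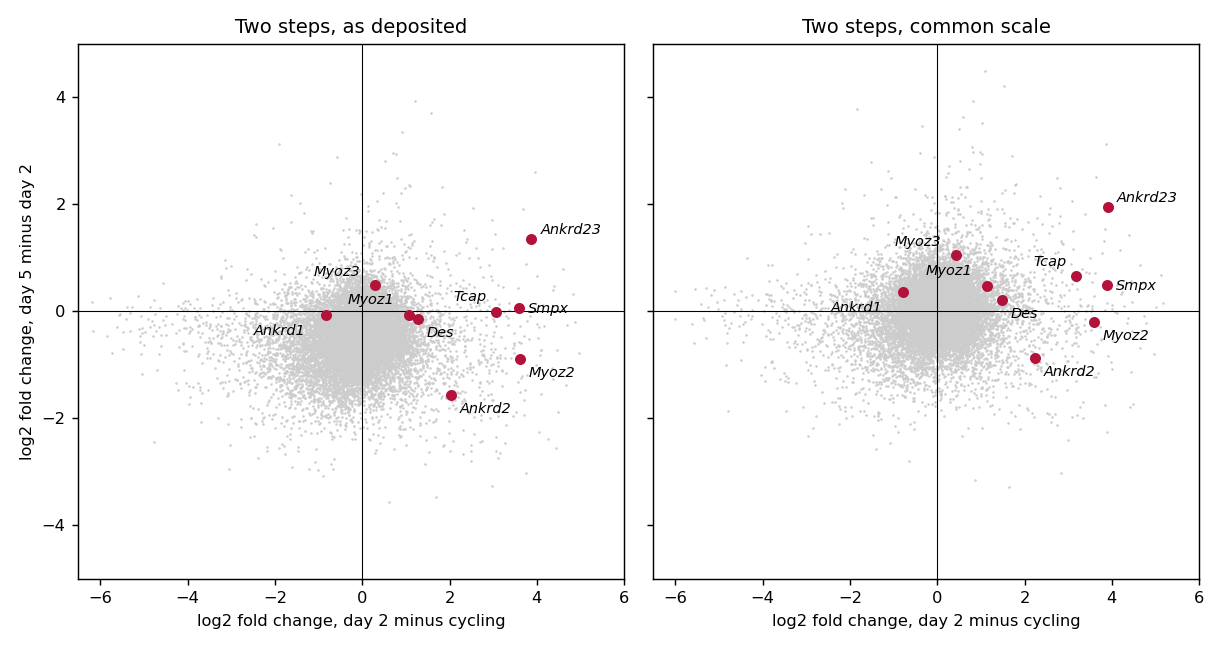
Log2 fold change of the second step (day 5 minus day 2) against that of the first (day 2 minus cycling) for 16582 tested genes (grey) and the 9 genes (red), as deposited and on the common scale. Ankrd23 lies at the upper right with 3.87 and 1.35 as deposited, Ankrd2 at the lower right with 2.02 and -1.56, and Ankrd1 left of 0.

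Likeness to other genes was measured as the Euclidean distance between the 3 time point means on the common scale, each gene centred on its own mean, and the 2 nearest of all tested genes are named. It describes 3 points per gene. Nearest to Ankrd1 were Itgav (distance 0.0068), an integrin alpha subunit, and Spout1 (0.014). Nearest to Ankrd2 were Fsd1l (0.055) and Adamtsl2 (0.065). For Ankrd23 they were Hspb7 (0.37), a muscle small heat shock protein, and Ckmt2 (0.40), the mitochondrial creatine kinase of muscle, both at larger distances than for any other of the 9 genes. Myoz2 was nearest to Cacna1s (0.053), the voltage sensor of excitation-contraction coupling, and Srl (0.11), sarcalumenin. Tcap was nearest to Ip6k3 (0.041) and Bhlhe40 (0.064), and Smpx to Ppp1r3a (0.097), a muscle glycogen-targeting subunit of protein phosphatase, and Cox6a2 (0.18). Des was nearest to Hspb8 (0.0052), a small heat shock protein, and Ccdc162 (0.013). Myoz1 was nearest to Ppp2r5b (0.017) and Tuba4a (0.018), and Myoz3 to Ghitm (0.0062) and Chrne (0.027), the adult subunit of the acetylcholine receptor.

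The RNA of other genes, related to the 9 by place in the cell, binding, regulation or muscle type, was followed in lists. Of the titin, Z-disc and I-band scaffold list, 27 of 28 genes were tested, 19 were called higher at day 2, against 6.04% of all tested genes, and 0 lower, against 8.41%. At any size, with an unadjusted limma p under 0.05 on both scales, 24 were higher, against 42.9% of all, and 3 lower, against 37.4%. At day 5, 13 were called higher, against 4.44%, and 1 lower, against 12.3%. These shares over all tested genes are the background for the other lists too. Titin itself, Ttn, had log2FC 2.92 as deposited (3.18 on the common scale) at day 2, and 2.05 and 2.95 at day 5. The largest of the rises called at day 5 were Fhl1 (3.71 and 4.56), a LIM protein, Myot (3.67 and 4.53), myotilin, Actn2 (3.58 and 4.14), the alpha-actinin that myozenins bind, and Xirp2 (3.10 and 3.75). Xirp2 lay below the array median in cycling myoblasts. The 1 fall was Fhl2 (-2.08 and -1.30). Myot, Fhl1 and Xirp2 were, from day 2 to day 5, the 3 called higher, against 0.766% of all, and 0 were called lower, against 3.67%. At any size with an unadjusted limma p under 0.05 on both scales, 4 were higher, against 16.2%, and 11 lower, the same share as the 40.7% of all tested genes. The median log2FC of the list was 1.28 as deposited (1.50 on the common scale) at day 2, against -0.01 and 0.09 over all tested genes.

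The genes of calcineurin, which myozenins tether, and of NFAT had calls near the background. Of 12 tested, 1 was called higher and 0 lower at day 2, and likewise at day 5, against 6.04% and 8.41% of all tested genes at day 2 and 4.44% and 12.3% at day 5. At any size with an unadjusted limma p under 0.05 on both scales, 5 were higher and 6 lower at day 2, against 42.9% and 37.4% of all, and 3 higher and 3 lower at day 5, against 29.7% and 38.2%. Rcan2, an inhibitor of calcineurin, was the 1 at day 5 with log2FC 1.35 as deposited (1.99 on the common scale), from below the array median in cycling myoblasts. Nfatc2, named after its values were seen, was the 1 at day 2 with 1.06 and 1.03, also from below the array median. The catalytic subunit gene Ppp3ca had log2FC -0.61 and -0.49 at day 2 and -0.84 and -0.05 at day 5. The median of the list was -0.13 and -0.04 at day 2 and -0.40 and 0.23 at day 5, so its sign at day 5 turned with the scale.

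Of 8 intermediate filament and linker genes other than desmin, 0 were called higher or lower at day 2, against 6.04% and 8.41% of all tested genes. At any size by an unadjusted limma p under 0.05 on both scales, 5 were higher, against 42.9%, and 1 lower, against 37.4%. At day 5, 0 were called higher, against 4.44% of all, and 1 lower, near the 12.3% of all. By the criterion of any size 2 were higher, against 29.7%, and 3 lower, against 38.2%. Vim, vimentin, was the 1 called at day 5, with log2FC -1.39 as deposited (-1.13 on the common scale). Nes, nestin, named after its values were seen, fell between day 2 and day 5 (-1.64 and -1.03). The list medians were 0.21 and 0.35 at day 2 and -0.47 and 0.31 at day 5. Within the calpain system, to which Capn3 belongs and of which 11 of 11 genes were tested, 3 were called higher, against 6.04% of all, and 1 lower, against 8.41%, at day 2. At day 5 it was 1 each, against 4.44% and 12.3%, near the background. At any size (unadjusted limma p under 0.05 on both scales), 3 were higher and 4 lower at day 2, against 42.9% and 37.4%. By that criterion 4 were higher and 4 lower at day 5, against 29.7% and 38.2%. Dysf, dysferlin, a membrane repair protein, rose at day 5 (1.94 and 2.84) and Capn5 fell (-2.16 and -1.38). From day 2 to day 5, 0 of the 11 were called, against 0.766% of all higher and 3.67% lower. In that contrast 1 was higher and 7 lower at any size at an unadjusted limma p under 0.05 on both scales, against 16.2% and 40.7%. The list medians were -0.17 and -0.03 at day 2 and -0.51 and 0.29 at day 5.

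Ankrd1 is itself a known YAP and TEAD target, and other such targets were followed as a list that leaves it out. Of 21 tested, 3 were called higher, against 6.04% of all, and 7 lower, against 8.41%, at day 2. At day 5, 1 was called higher, near the 4.44% of all, and 8 lower, against 12.3%. The largest falls called at day 5 were Igfbp3 (-3.73 as deposited, -2.85 on the common scale), Asap1 (-3.39 and -2.68), Axl (-3.48 and -2.64) and Ccn1 (-3.13 and -2.28). Fjx1 (1.53 and 1.89) was the 1 called higher, from a level at or below the filter value in cycling myoblasts. The median log2FC of the list was -0.58 as deposited (-0.28 on the common scale) at day 2, and -1.60 and -0.73 at day 5, where all tested genes had -0.37 and 0.17. Ccn2, the defining YAP target and named after its values were seen, rose at day 2 (2.49 and 2.63) and fell from day 2 to day 5 (-2.60 and -1.97).

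Several of the 9 genes are best known from heart and slow muscle, and other genes with that association were followed as a list. Of 10 tested, 7 were called higher at day 2, against 6.04% of all, and 6 at day 5, against 4.44%. The 1 called lower at each was near the background of 8.41% and 12.3%. Myl2 (3.42 as deposited, 3.96 on the common scale), Tnni1 (2.38 and 2.95), Tnnc1 (1.71 and 2.25) and Actc1 (1.70 and 2.09) had the largest rises called at day 5, and Tpm3 (-3.31 and -2.53) fell. Myl2 lay below the array median in cycling myoblasts. Myh7, the slow myosin heavy chain and named after its values were seen, was higher at day 2 (1.46 and 1.71) and fell from day 2 to day 5 (-2.08 and -1.40). The median of the list was 1.63 and 1.73 at day 2 and 1.33 and 1.85 at day 5.

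**Figure D4:**
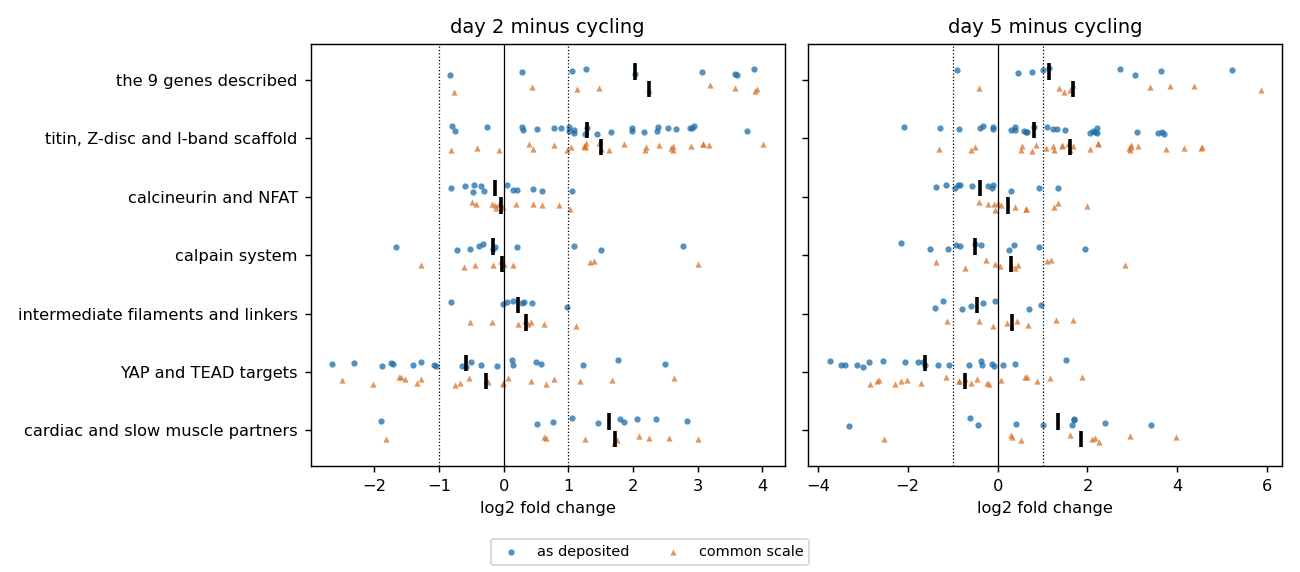
Log2 fold changes against cycling myoblasts at day 2 and day 5 of the 9 genes and of the tested genes of 6 lists, as deposited (blue circles) and on the common scale (orange triangles), with black bars at the medians and dotted lines at 2-fold. The median of the 9 genes at day 2 is 2.02 as deposited, that of the scaffold list 1.28 and that of the YAP and TEAD targets -0.58.

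Markers of other cell types were set beside these changes. Of 4 endothelial markers 0 lay above the array median on all 3 arrays of any time point, and of 4 macrophage markers 1 (Cd68) did, in cycling myoblasts. Of 6 fibroblast markers 2, 2 and 3 did at the 3 time points: Col3a1 and Thy1 at each, and Pdgfra at day 5. Lum and Dcn lay below the filter. The summed log2 level of the 6 was 26.08 to 26.12 in cycling myoblasts, 22.90 at day 2 and 22.17 to 22.55 at day 5. That fall lay mainly in Col3a1, with means of 8.92, 6.06 and 4.77. Thy1 had means of 5.03, 4.69 and 4.68, and Pdgfra of 4.29, 3.67 and 4.36. Of the 4 smooth muscle and pericyte markers 2, 1 and 2 lay above the array median, with summed levels of 25.07 to 25.25, 21.84 to 21.91 and 20.20 to 20.24. Acta2 did at each time point, Rgs5 in cycling myoblasts and Cnn1 at day 5. Col3a1 and Rgs5 fell at least 2-fold on both scales at day 2 and at day 5 against cycling myoblasts, and Acta2 fell from day 2 to day 5 (-1.77 and -1.20). Of 6 cardiomyocyte markers 2, 3 and 3 lay above the array median: Tnni3 and Nkx2-5 at each time point, and Myh6 at day 2 and day 5. Nppa, Nppb and Myl7 did at no time point. The summed level of the 6 was 26.95 to 27.27 in cycling myoblasts, 27 to 27.06 at day 2 and 24.94 to 25.06 at day 5. Of 4 adipocyte markers 1 (Plin1) lay above the array median at each time point. Summed levels were taken on the deposited values alone, where the median log2FC of all tested genes at day 5 was -0.37 (0.17 on the common scale). Among tested markers that median at day 5 was -0.40 as deposited (-0.06 on the common scale) for cardiomyocytes. For fibroblasts it was -0.14 and 0.43, and for smooth muscle and pericytes -0.90 and -0.395. The part of such cells in the changes of the 9 genes was not tested.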

How the data were processed

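The authors deposited log2 expression values made with RMA, which was run on each set of replicates apart, per the submitters' processing notes for the tool and the series' design text for the sets. Neither the RMA version nor a genome build is stated (not given in the sources used here). On each of 9 arrays there were 35556 probe sets, of which 21789 named 1 gene, 1621 several and 12146 none, by GEO's platform annotation. For each gene the probe set with the highest mean was kept, and genes above the 30th percentile of their array on at least 3 arrays were tested.

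A linear model with 1 mean per time point was fitted to all tested genes with limma 3.58.1 in R 4.3.3, on the deposited values and on the common scale, with Benjamini-Hochberg adjustment. The fit was checked on simulated data with independent normal noise of the same SD for every gene. The deposited values differ from that setting, so the check covers the computation and not the p-values given here. Exact permutation tests used SciPy 1.17.1. Members, lists, the rule for named genes (all members, at most 4 list genes per direction by size at day 5, and the 2 nearest genes) and alternatives were chosen with earlier results of these data known. Arrays have no count depth, so the 3 arrays per group limit the precision.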

Additional observations from a re-analysis of the deposited data

How the results depend on the processing

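The counts of 7 and 6 genes called higher than in cycling myoblasts at day 2 and day 5 kept within 1.5 times under each alternative tried: the common scale alone, deposited values alone, arrays shifted to one median, no filter, a filter at the 50th percentile, trend and robust on, a replicate block, and leaving out each of the 9 arrays in turn. Taking the mean of all probe sets could not move a value of these genes, which have 1 each. The filters, the replicate block and trend and robust on left every log2FC as it was. They altered limma's adjusted p alone, which lay far under 0.05 for the called genes. With 16 of 27 SDs at 0, leaving out 1 array could hardly move a mean. Only the settings that change the scale were therefore a real check of these counts. At day 5 the count was 8 on the common scale alone and 7 with arrays shifted to one median. Between day 2 and day 5, the count of 1 called higher became 2 on the common scale alone, where Myoz3 joined Ankrd23, and the count of 0 called lower became 1 (Ankrd2) on the deposited values alone and 1 with arrays shifted to one median. In that contrast the sign turned for 4 genes. On the common scale alone, the log2FC was 0.37 for Ankrd1, 0.48 for Myoz1, 0.65 for Tcap and 0.21 for Des, and with arrays shifted to one median it was 0.22, 0.22, 0.26 and 0.14. The median shift adds 1 amount to all values of an array, and by its construction that alone turns these signs. The 18 family differences kept their sign on the common scale and without each array. Their SDs at a time point were at most 0.091 as deposited, so leaving out 1 array could hardly turn a sign. The common scale is a weak check too, since a difference within an array cancels any amount added to the whole array. With the replicate block 7, 6 and 1 genes were called higher in the 3 contrasts, as without it. Arrays with the same replicate number did not deviate together (r from -0.04 to 0.11 over 9 pairs, 1 of them over 0.1), and an array correlated best with its own number in 4 of 9 cases. Background was not measured in the values used, so levels below the array median or little above it carry no known precision. Over all tested genes, 736 were called higher and 2040 lower at day 5 than in cycling myoblasts, against 1960 and 2040 on the common scale alone, 736 and 4840 on deposited values alone and 1413 and 3336 with arrays shifted to one median. Between day 2 and day 5 the counts were 127 and 609, against 461 and 609, 127 and 2548, and 234 and 1287 in the same order.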
